A study of Mus musculus with 2 samples.

Results

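The genes described here encode heat shock proteins, chaperonins and FK506-binding proteins, the machinery that folds newly made and damaged proteins. They were taken by symbol: every probe whose gene symbol in the authors' deposited table began with Hspa, Hspb, Hspd, Hspe, Hsph or Hsp followed by a digit, with Dnaja, Dnajb or Dnajc followed by a digit, with Cct2 to Cct8, or with Fkbp followed by a digit. That gave 163 of the 41174 probes on the array, for 85 genes, of which 81 were bright enough to be tested among 15266 genes in all. The 29 probes of Fkbp genes, 12 of Cct genes, 27 of the Hspa and Hsph genes, 10 of Hspb genes, 5 of HSP90 genes, 3 of Hspd1 and Hspe1, and 8, 23 and 45 of the Dnaja, Dnajb and Dnajc genes make up the set with the single probe of Hspbap1, which the symbol rule takes in although its product binds a heat shock protein and is not one. The set was chosen by name with the fold changes of FLAG IP over input on these arrays already known, so the values of its genes are given as a description, without p-values.

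The tissue was the male gonad of MCH mice at embryonic day 14.5, and both groups carried the same transgene, in which a Nanos2 enhancer drives Nanos2 with a 3xFLAG tag and its 3′UTR. Nanos2 is an RNA-binding protein of male germ cells. RNA recovered with anti-FLAG M2 agarose (FLAG IP) was set against RNA of the starting material with no antibody (input), with 2 one-colour Agilent arrays per group. The series text calls the duplicates biological, but no label ties an array to its own animals, so the spread between them may be partly technical. An untagged or mock precipitation was not analysed here. In bulk RNA, fewer cells of a type and less RNA per cell cannot be told apart, and a FLAG IP over input value is a share of the RNA recovered relative to its share of the input.

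HSP70 proteins bind exposed hydrophobic stretches of unfolded proteins in a cycle of ATP hydrolysis. J-domain proteins, encoded by the Dnaj genes, bring substrates to HSP70 and start that hydrolysis, and HSP110 proteins exchange its nucleotide. HSP90 finishes the folding of kinases and steroid receptors, small heat shock proteins hold unfolded proteins without ATP, and the chaperonins, HSP60 in mitochondria and the CCT ring in the cytosol, enclose a protein while it folds. FK506-binding proteins turn the peptide bond before proline, and several of them sit in the endoplasmic reticulum, where they act on collagen and other secreted proteins. In mouse germ cells some of these families have their own members, such as Hspa2 and Fkbp6, which spermatocytes need.

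All values are log2 of the processed signal, scaled by subtracting the 75th percentile of each array, so 0 is the level of that percentile and a difference of 1 is a 2-fold change. A fold change is FLAG IP minus input on this scale, with its SE from limma, and a gene is called higher or lower at an adjusted p below 0.05 over all genes tested. That 75th percentile was 55.7 and 608 intensity units on FLAG IP arrays 1 and 2, against 1026 and 1038 units on input arrays 1 and 2. FLAG IP arrays had 42.7% and 65.4% of their spots well above background, against 66.0% and 70.2% in the input. No spot was saturated, and 4 arrays limit the precision of every value. Nanos2 itself stood 1.88 ± 0.20 (SE) higher in the FLAG IP, on a probe that does not separate the transgene from the endogenous gene.

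Over the 81 genes, 15 were called higher and 26 lower in the FLAG IP, where 28.0% of all genes were called higher and 25.4% lower. The median fold change of the set was -0.30, against 0.07 for all genes tested. Both FLAG IP arrays lay above both input arrays for 23 genes of the set, against 42.0% of all genes, and below both for 38 genes, against 38.2% of all genes. The arrays overlapped for the remaining 20. Of the 81 genes, 9 entered through the input alone, where they had to be bright. With a signal above background required on all 4 arrays, 72 genes were tested, with 15 called higher, 24 lower and a median of -0.17. In that setting 35.9% of all genes were called higher and 27.8% lower, with a median of 0.19. Of the 41 genes called in the main fit, 35 were present there and 35 kept their call, so other genes gained one. The counts moved with the processing, as did those over all genes, given beside them. Quantile normalization called 22 genes of the set higher and 22 lower, where it called 26.4% and 24.3% of all genes. Normexp background correction called 2 higher and 12 lower, against 8.35% and 9.13% of all genes. Without input array 1 there were 4 higher and 12 lower calls, against 9.37% and 10.1% of all genes, and without input array 2 there were 5 and 12, against 10.1% and 11.3%. Without FLAG IP array 1 there were 26 and 41, against 40.6% and 40.7%, and without FLAG IP array 2 there were 22 and 41, against 44.8% and 37.4%. The families differed widely within the set, as the plot of fold changes by family shows.

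**Figure D1:**
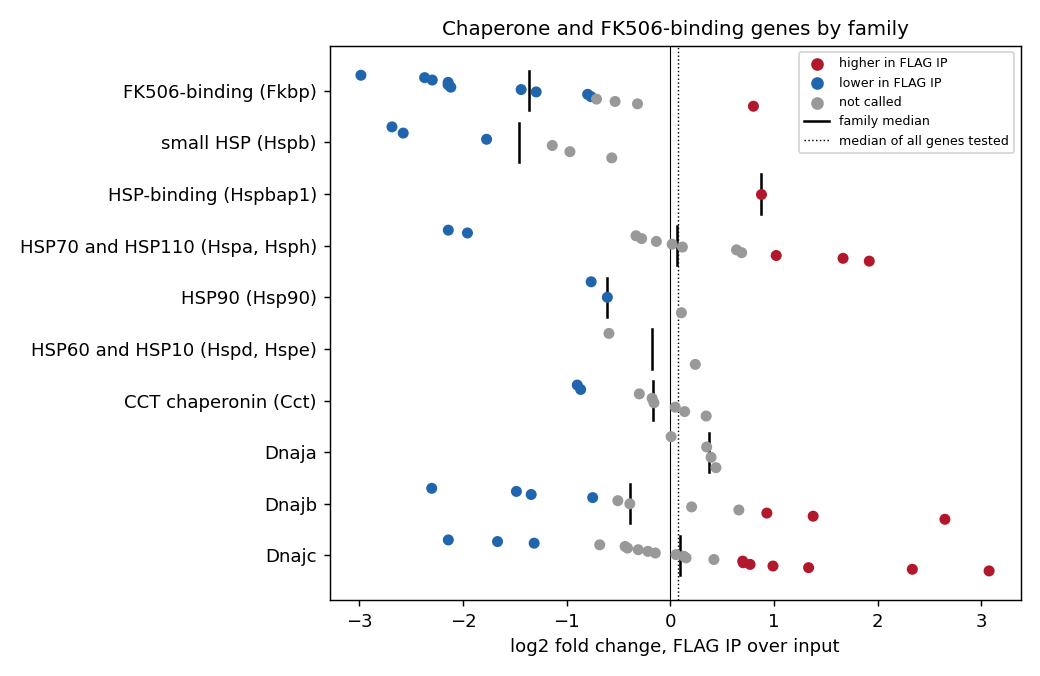
Log2 fold change of FLAG IP over input for each tested gene by family (red, called higher in the FLAG IP; blue, called lower; grey, not called), with the family median as a bar and the median of all genes tested as a dotted line. Most Fkbp genes lie below 0 (median -1.37), as do the 6 tested Hspb genes, of which 5 entered through the input alone, the Cct genes all lie between -0.90 and 0.35, and the Dnajb and Dnajc genes spread from -2.30 to 3.08.

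The FK506-binding protein genes had the most lower calls of any family in the set. Of 14 Fkbp genes tested, 10 were called lower, 1 higher and 3 were not called, with a median of -1.37. Over all genes tested, 25.4% were called lower and 28.0% higher. Of all genes, 7.83% were lower by 4-fold or more. In the Fkbp family 6 genes were, and these were Fkbp2, Fkbp7, Fkbp9, Fkbp10, Fkbp11 and Fkbp14, whose products all reside in the endoplasmic reticulum. Their median was -2.22, against -0.74 for the 8 other Fkbp genes. All 6 were called lower in every alternative setting except normexp correction, with 5, and no scaling, with 0. With either input array left out, they were the 6 Fkbp genes still called lower.

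Fkbp7, which encodes an FK506-binding protein of the endoplasmic reticulum with calcium-binding EF hands, read -1.06 and -1.34 on the FLAG IP arrays, against 1.81 and 1.76 on the input arrays. Fkbp2, the small member of the endoplasmic reticulum, read 1.01 and 0.65 in the FLAG IP, against 3.15 and 3.25 in the input. Fkbp10, a chaperone of type I collagen, read 1.71 and 1.12 in the FLAG IP, against 3.72 and 3.70 in the input. For these 3 genes the fold changes were -2.99 ± 0.18, -2.37 ± 0.20 and -2.30 ± 0.26, and both FLAG IP arrays lay far below both input arrays.

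Fkbp9, related to Fkbp10 in its repeated isomerase domains, read 1.5 and 1.69 in the FLAG IP, against 3.71 and 3.77 in the input. Fkbp11, known from secretory cells, read -1.43 and -1.56 in the FLAG IP, against 0.71 and 0.59 in the input. Fkbp14, which in humans is mutated in a connective tissue disorder, read -1.15 and -1.32 in the FLAG IP, against 0.93 and 0.84 in the input. Their fold changes lay close together, at -2.14 ± 0.17, -2.14 ± 0.17 and -2.12 ± 0.17.

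The cytosolic and other members stood nearer to the input. Fkbp5, the HSP90 co-chaperone that restrains the glucocorticoid receptor, read 0.06 and -0.29 in the FLAG IP, against 1.30 and 1.35 in the input (-1.44 ± 0.20). Fkbp1b, a partner of calcium release channels, read -1.73 and -1.81 in the FLAG IP, against -0.45 and -0.50 in the input (-1.29 ± 0.16). Fkbp4, the HSP90 partner that helps steroid receptors reach the nucleus, read 2.98 and 3.20 in the FLAG IP, against 3.87 and 3.91 in the input (-0.80 ± 0.17). In each of these the groups did not overlap, and all 3 were called lower.

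Fkbp8, a member anchored in the mitochondrial outer membrane, was called lower at -0.76 ± 0.20. Fkbp1a, the classic target of FK506 and rapamycin, at -0.71 ± 0.24, and Fkbp3, a nuclear member, at -0.53 ± 0.16, were not called. Fkbp6, needed for meiosis and transposon silencing in mouse male germ cells, read 5.17 and 5.21 in the FLAG IP, against 5.50 and 5.51 in the input. The difference of -0.32 ± 0.15 was not called, while the second Fkbp6 probe gave -0.91 and was called lower. Fkbp15 was the exception in direction, with 1.22 and 1.29 in the FLAG IP against 0.41 and 0.49 in the input (0.80 ± 0.16, called higher). It was not called with its 5 tested probes averaged, where it stood at 0.53.

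**Figure D2:**
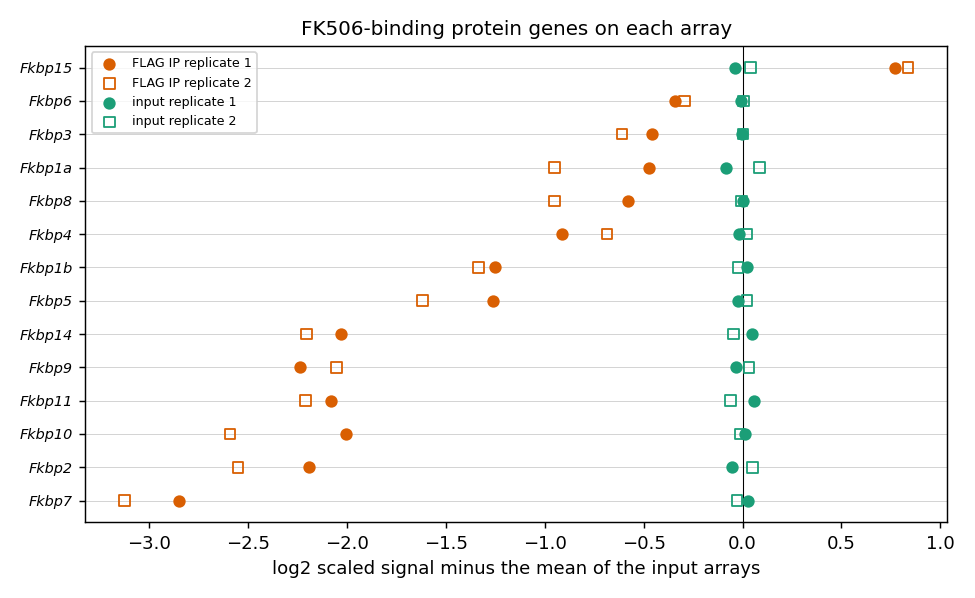
The 14 Fkbp genes on each array, as log2 scaled signal minus the mean of the input arrays (orange, FLAG IP; green, input; circles, replicate 1; squares, replicate 2). The endoplasmic reticulum members fill the lower end, Fkbp15 is the only gene to the right of the input, and the FLAG IP pairs of points never reach the input pairs.

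Of the 7 small heat shock protein genes, 6 were tested, and 5 of those (Hspb2, Hspb6, Hspb7, Hspb8 and Hspb9) entered through the input alone, so no count over the family is read. On its tested probe Hspb1 was above background on all 4 arrays. The other Hspb1 probe, too dim to be tested, read -3.70 and -4.69 in the FLAG IP, against -8.26 and -7.23 in the input, in the other direction. The values that follow are those of the tested probe. Hspb1, the widely expressed HSP27, read 0.36 and 0.56 in the FLAG IP, against 3.01 and 3.06 in the input, and its change of -2.58 ± 0.17 was lower under every setting except no scaling. Hspb8, which works with the co-chaperone Bag3, read -2.94 and -1.58 in the FLAG IP, against 0.49 and 0.37 in the input (-2.69 ± 0.50), with the FLAG IP arrays further apart. Hspb7, a muscle-enriched member, read -4.52 and -5.38 in the FLAG IP, against -3.19 and -3.16 in the input (-1.77 ± 0.34). Hspb7 and Hspb8 were above background on 1 FLAG IP array only. Hspb7 turned to 0.31 relative to all genes under normexp correction, where the median of the 6 tested genes was 0.23.

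The other small heat shock protein genes were dim. Hspb2, at -1.14 ± 0.34, and Hspb9, a testis-enriched member, at -0.56 ± 0.45, were above background on 1 FLAG IP array. Hspb6 was above background on no FLAG IP array and on both input arrays, and its arrays overlapped, at -4.16 and -6.69 in the FLAG IP, against -4.62 and -4.28 in the input. Hspb3, above background on 1 array of each group and so not tested, read -3.71 and -4.07 in the FLAG IP, against -6.25 and -5.34 in the input, a difference of 1.904 without the filter on dim probes, in the other direction.

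The HSP70 and HSP110 genes had calls in both directions. Of 12 tested, 3 were called higher, 2 lower and 7 were not called, with a median of 0.07. Over all genes tested, 28.0% were called higher and 25.4% lower. Hspa1l and Hspa12a passed the filter through the input alone. With a signal above background required on all 4 arrays, 10 were tested, with 3 called higher and 1 lower, where 35.9% and 27.8% of all genes were. Hspa1l is not among those 10, so a gene not called in the main fit was called higher there. Hsph1, the HSP110 nucleotide exchange factor, read 6.29 and 6.12 in the FLAG IP, against 4.19 and 4.38 in the input (1.92 ± 0.18). Hspa4l, an HSP110 relative abundant in mouse testis, read 3.78 and 3.70 in the FLAG IP, against 1.99 and 2.16 in the input (1.67 ± 0.17), and all 4 of its probes were called higher, from 1.67 to 3.04. Hspa1l, a testis-enriched HSP70, read -3.60 and -4.30 in the FLAG IP, against -4.95 and -4.99 in the input (1.02 ± 0.29). It passed the filter through the input alone, and the call was lost without either input array, without the filter on dim probes, under normexp correction, without scaling and with eBayes trend and robust settings.

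The cytosolic HSP70 genes Hspa8, Hspa1a and Hspa2 stood near the input on their brightest probe. Hspa8, the constitutive cytosolic HSP70, read 6.08 and 6.47 in the FLAG IP, against 6.43 and 6.39 in the input (-0.13 ± 0.21). Hspa1a, the heat-induced HSP70, read 2.81 and 2.22 in the FLAG IP, against 2.69 and 2.89 in the input (-0.28 ± 0.27), on a probe that may also read its near-identical neighbour Hspa1b. Hspa2, the spermatocyte HSP70, read 0.45 and 0.05 in the FLAG IP, against 0.16 and 0.30 in the input (0.02 ± 0.22). For all 3 the arrays of the groups overlapped on these probes, and every other tested probe had both FLAG IP arrays below both input arrays without being called: at -0.74 for Hspa8, at -0.66, -0.77 and -0.88 for Hspa1a and at -0.38 for Hspa2.

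Hspa5, or BiP, the HSP70 of the endoplasmic reticulum, read 5.04 and 4.87 in the FLAG IP, against 5.28 and 5.29 in the input (-0.33 ± 0.17, not called). It belongs to the same compartment as the 6 lowest Fkbp genes, and its change was smaller than theirs. Hspa9, the mitochondrial HSP70, read 4.91 and 4.56 in the FLAG IP, against 4.16 and 4.03 in the input (0.64 ± 0.20, not called). Its arrays did not overlap. Hspa4, an HSP110 relative, read 1.95 and 3.58 in the FLAG IP, against 2.23 and 1.92 in the input (0.69 ± 0.60). Hspa14, a ribosome-associated HSP70, stood at 0.12 ± 0.29, and the arrays of both genes overlapped. The distant relatives Hspa12a and Hspa12b were the 2 called lower. Hspa12b, known from endothelial cells, read -0.58 and -0.68 in the FLAG IP, against 1.54 and 1.48 in the input (-2.14 ± 0.16). Hspa12a read -3.47 and -2.47 in the FLAG IP, against -1.08 and -0.94 in the input (-1.96 ± 0.38, above background on 1 FLAG IP array).

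The HSP90 genes were bright on every array. Hsp90aa1, the heat-induced cytosolic HSP90, read 6.78 and 7.16 in the FLAG IP, against 6.96 and 6.77 in the input (0.11 ± 0.21), and its arrays overlapped. Hsp90ab1, the constitutive one, read 6.28 and 6.30 in the FLAG IP, against 6.91 and 6.89 in the input (-0.61 ± 0.15). Hsp90b1, or Grp94, the HSP90 of the endoplasmic reticulum, read 5.28 and 5.14 in the FLAG IP, against 5.97 and 5.98 in the input (-0.76 ± 0.16). Both were called lower, and both turned sign under quantile normalization, at 0.42 and 0.0070, where the median of the 3 genes was 0.42. Under normexp correction that median was -1.55 relative to all genes, with the 3 genes from -1.81 to -0.55 and 0 called. The second probe of Hsp90b1 gave -1.92.

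The mitochondrial chaperonin genes lie head to head on chromosome 1. Hspd1, encoding HSP60, read 6.07 and 6.18 in the FLAG IP, against 5.95 and 5.82 in the input (0.24 ± 0.17). Hspe1, encoding its lid HSP10, read 3.78 and 4.23 in the FLAG IP, against 4.61 and 4.58 in the input (-0.59 ± 0.22). Neither was called. The second Hspd1 probe gave -0.31, with 2.33 and 2.69 in the FLAG IP against 2.84 and 2.80 in the input, so the direction of Hspd1 depended on the probe. Heat shock factor binds inverted repeats of GAA, and 3 repeats, written as GAA, NN, TTC, NN, GAA without a gap, were searched on both strands of the RefSeq promoter windows (GRCm38.p6, 250 bases before to 50 after each start). The motif lay in 198 of 32851 windows, 0.603%, and in 179 of 27025 genes, 0.662%. Of the 85 genes of the set, 72 had a window, and 4 of those, 5.56%, held it: Hspd1, Hspe1, Hsph1 and Dnajb6. The stretches are shown because they are the sequence the 4 genes share, with the motif and its overlapping copies in capitals.
Hspe1 chr1:55088053-55088082 plus strand: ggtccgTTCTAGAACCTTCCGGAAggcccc
Hspd1 chr1:55088053-55088082 minus strand: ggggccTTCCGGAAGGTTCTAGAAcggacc
Hsph1 chr5:149636282-149636306 minus strand: tgcagaTTCTGGAAAGTTCtcctca
Dnajb6 chr5:29735846-29735870 plus strand: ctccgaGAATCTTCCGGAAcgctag
The Hspe1 and Hspd1 lines are one stretch read on its 2 strands, with 2 overlapping matches, 89 bases upstream of Hspe1 and 144 upstream of Hspd1. The Dnajb6 match lies 46 or 127 bases upstream, by the start taken, and the Hsph1 match 15 or 36 bases downstream. The 4 genes with the motif had fold changes from -0.59 to 1.92, and limma called 1 higher and 0 lower. The 65 tested genes with a window and no match had a median of -0.33, with 13 called higher and 23 lower. Of all genes tested, 28.0% were called higher and 25.4% lower. With only 4 genes, of which Hspd1 and Hspe1 share a stretch, no difference by motif is read from these counts. The motif's presence describes these letters and says nothing of binding.

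The Cct genes encode subunits of the cytosolic chaperonin that folds actin and tubulin, with Cct6b as a testis form of Cct6a; the remaining subunit, Tcp1, carries another symbol and is given with prefoldin. All 8 genes tested lay within 2-fold of the input, as did 52.4% of all genes. Cct7 read 5.13 and 5.55 in the FLAG IP, against 6.23 and 6.25 in the input (-0.90 ± 0.21). Cct6a read 0.88 and 0.78 in the FLAG IP, against 1.67 and 1.71 in the input (-0.87 ± 0.16). These 2 were called lower, where 25.4% of all genes were, and the other 6 were not called. Cct7 stood at -0.02 under quantile normalization and -2.02 under normexp correction relative to all genes.

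The remaining Cct genes were close to the input in the main fit. Cct4 read 5.26 and 4.80 in the FLAG IP, against 4.67 and 4.70 in the input (0.35 ± 0.22). Cct8 read 5.0 and 5.18 in the FLAG IP, against 4.91 and 4.99 in the input (0.14 ± 0.17). Both genes had both FLAG IP arrays above the input without being called. Cct2 read 6.19 and 6.23 in the FLAG IP, against 6.10 and 6.22 in the input (0.05 ± 0.16). Cct6b read 3.71 and 3.45 in the FLAG IP, against 3.80 and 3.68 in the input (-0.16 ± 0.18). The arrays of both overlapped. Cct3 read 2.61 and 2.46 in the FLAG IP, against 2.70 and 2.72 in the input (-0.18 ± 0.16), without overlap. Cct5 read 4.99 and 6.20 in the FLAG IP, far apart around the 5.88 and 5.90 of the input (-0.30 ± 0.45). The family median was -0.17, and 0.25 under quantile normalization. Under normexp correction it was -0.95 relative to all genes, with the 8 genes from -2.02 to -0.64 and 0 called.

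**Figure D3:**
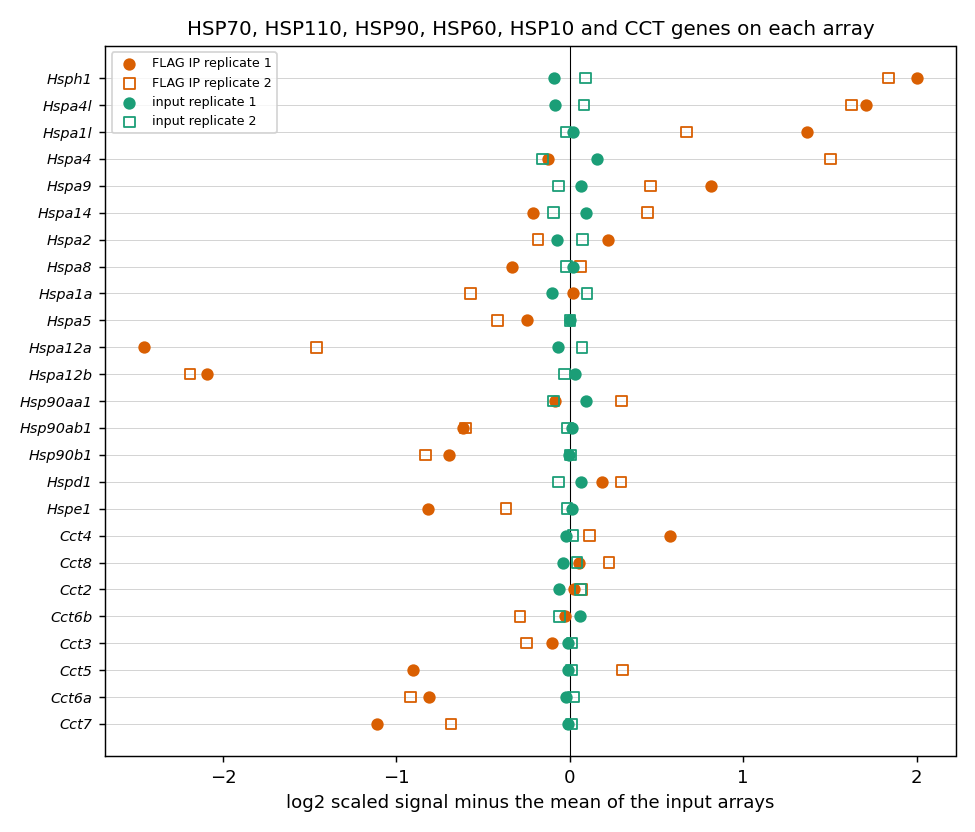
HSP70, HSP110, HSP90 and chaperonin genes on each array, as log2 scaled signal minus the mean of the input arrays (orange, FLAG IP; green, input; circles, replicate 1; squares, replicate 2). Hsph1 and Hspa4l lie to the right of the input and Hspa12a and Hspa12b to the left, and Hspa8, Hsp90aa1 and most Cct genes overlap the input or nearly so on the brightest probe, which is the one drawn.

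The J-domain genes were the most spread of the set. None of the 4 Dnaja genes was called, though the other 2 probes of Dnaja1, a farnesylated HSP40, were called higher, at 1.10 and 1.15 against 0.35 ± 0.16 for the brightest. Of 11 Dnajb genes tested, 3 were called higher, 4 lower and 4 were not called, where 28.0% of all genes were called higher and 25.4% lower. Dnajb13 and Dnajb14, both among the lower calls, passed the filter through the input alone. With a signal above background required on all 4 arrays, 9 were tested, with 3 called higher and 2 lower, where 35.9% and 27.8% of all genes were. Dnajb9, an HSP70 partner in the endoplasmic reticulum that is induced when unfolded proteins accumulate, read 2.53 and 3.39 in the FLAG IP, against 0.31 and 0.31 in the input (2.65 ± 0.34), and all 3 of its probes were called higher. Dnajb1, the heat-induced HSP40, read 6.69 and 6.21 in the FLAG IP, against 5.05 and 5.08 in the input (1.38 ± 0.23). Dnajb4 read 2.79 and 2.52 in the FLAG IP, against 1.77 and 1.67 in the input (0.93 ± 0.18), while another of its probes gave -0.66.

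The lower end of the Dnajb genes held Dnajb14, Dnajb2, Dnajb3 and Dnajb13. Dnajb14, an endoplasmic reticulum membrane protein, read -4.61 and -3.65 in the FLAG IP, against -1.85 and -1.80 in the input (-2.30 ± 0.37). Dnajb2, with a neuronal role in humans, read -0.80 and -0.28 in the FLAG IP, against 0.91 and 0.98 in the input (-1.49 ± 0.24). Dnajb3, a testis-enriched member, read -1.05 and -1.02 in the FLAG IP, against 0.28 and 0.34 in the input (-1.34 ± 0.16). Dnajb13, a sperm flagellum protein, read -4.74 and -5.18 in the FLAG IP, against -4.24 and -4.18 in the input (-0.75 ± 0.22). It turned to 1.04 relative to all genes under normexp correction. Dnajb6, whose match to the heat shock motif is printed above, read 2.96 and 3.72 in the FLAG IP, against 2.62 and 2.73 in the input (0.66 ± 0.31, not called). Its other probes stood at 0.10, not called, and -0.92, called lower. The lumenal Dnajb11, a BiP partner like Dnajb9, stood at -0.39, with 3.39 and 3.46 in the FLAG IP against 3.81 and 3.82 in the input.

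Of 20 Dnajc genes tested, 7 were called higher, 3 lower and 10 were not called, where 28.0% of all genes were called higher and 25.4% lower. Dnajc6, or auxilin, which strips clathrin coats in neurons, read -0.27 and -0.76 in the FLAG IP, against -3.55 and -3.63 in the input (3.08 ± 0.23). Dnajc5g, a testis member of the cysteine string protein family, read -1.84 and -1.72 in the FLAG IP, against -4.10 and -4.14 in the input (2.34 ± 0.16). Dnajc11, a mitochondrial outer membrane protein, read 1.58 and 0.78 in the FLAG IP, against -0.17 and -0.13 in the input (1.34 ± 0.32). These were the 3 highest Dnajc genes, and Dnajc6 had the highest fold change of the 81.

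The other higher calls were smaller. Dnajc10, a disulfide reductase of the endoplasmic reticulum, stood at 0.99 ± 0.28, with 4 probes from -0.81 to 0.99. Tested probe by probe, its brightest probe at 0.99 was not called. The Dnajc10 probe at -0.81, above background on 1 FLAG IP array, was called lower. Dnajc16 stood at 0.77 ± 0.16, Dnajc17 at 0.70 ± 0.17 and Dnajc8, a splicing-associated protein, at 0.70 ± 0.16. Hspbap1 stood at 0.87 ± 0.22. Under normexp correction Dnajc8 read -0.045 and Hspbap1 -0.19 relative to all genes, whose median shift of 0.31 was taken off. Both values are smaller in size than that shift, so the turn in sign rests on it.

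At the other end, Dnajc18 read 0.01 and -0.22 in the FLAG IP, against 2.07 and 2.01 in the input (-2.14 ± 0.18). Dnajc15, a mitochondrial inner membrane protein, read 2.42 and 1.67 in the FLAG IP, against 3.87 and 3.56 in the input (-1.67 ± 0.32). Dnajc3, an inhibitor of the stress kinase PERK that sits in the endoplasmic reticulum, read -0.64 and -0.66 in the FLAG IP, against 0.67 and 0.65 in the input (-1.31 ± 0.15). In the list of endoplasmic reticulum chaperones, 14 genes with Hspa13, 2 were called higher, 8 lower and the median was -1.04. Dnajb9 and Dnajc10 were on one side, and the 6 Fkbp genes, Hsp90b1 and Dnajc3 on the other. Beside this list, 28.0% of all genes were called higher and 25.4% lower. On their brightest probe the uncalled Dnajc genes ran from -0.68 (Dnajc4) to 0.42 (Dnajc2). A second Dnajc9 probe gave -1.55 and was called lower. Other Dnajc19 probes gave -1.77 and -0.86, not called and above background on no FLAG IP array. Among the uncalled genes Dnajc13 had FLAG IP arrays at -0.79 and 1.29 on either side of its input, 0.07 and 0.17.

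**Figure D4:**
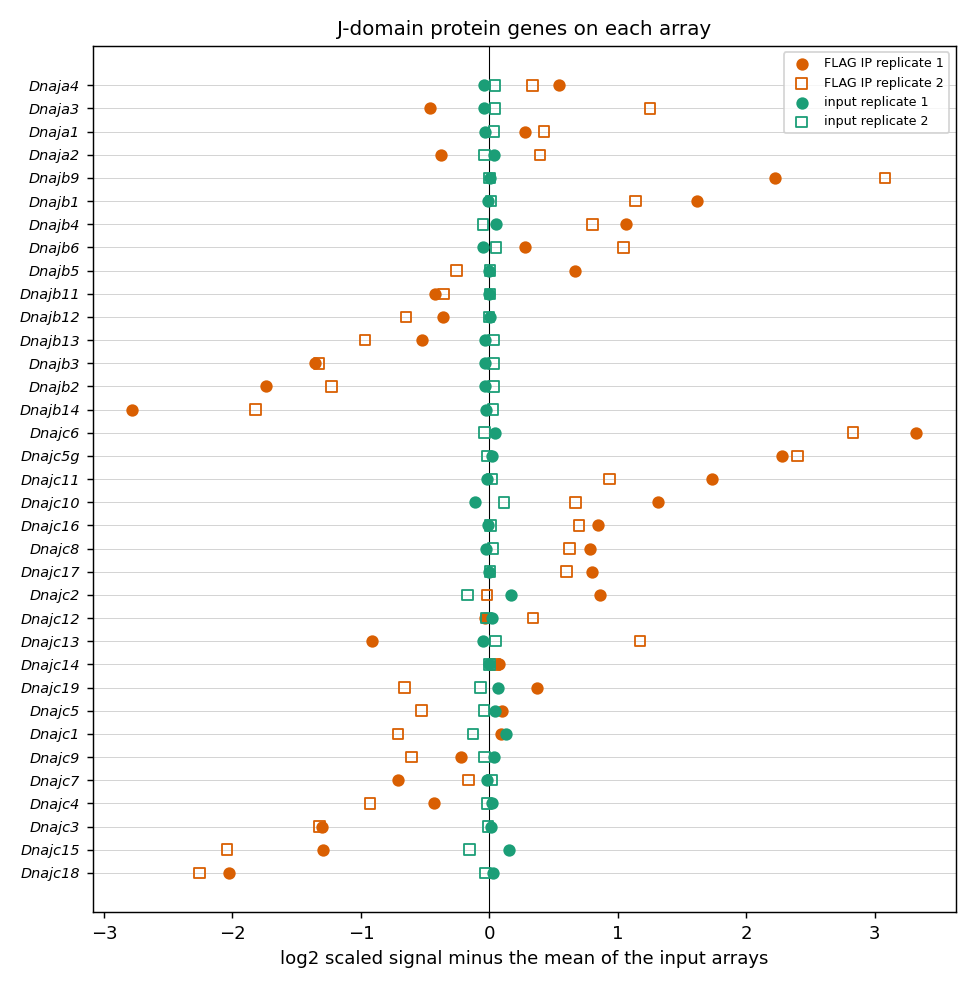
J-domain protein genes on each array, as log2 scaled signal minus the mean of the input arrays (orange, FLAG IP; green, input; circles, replicate 1; squares, replicate 2). Dnajb9, Dnajc6 and Dnajc5g lie furthest to the right and Dnajb14 and Dnajc18 furthest to the left, while the FLAG IP arrays of Dnaja3 and Dnajc13 fall on both sides of the input.

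Dnajb7, Dnajb8, Dnajc5b and Hspb3 had no probe bright enough to be tested. Of the 81 tested genes, 72 were above background on all 4 arrays and 9 passed through the input alone: Hspb2, Hspb6, Hspb7, Hspb8, Hspb9, Hspa1l, Hspa12a, Dnajb13 and Dnajb14. At the probe level, 149 member probes were tested, with 23 called higher and 42 lower, where 23.2% and 22.4% of all probes were. Of 44 genes with more than 1 tested probe, 32 had all their probes on one side of 0, and 0 had probes called in opposite directions. Dnajc10, however, was called higher as a gene and had a probe called lower, at -0.81. For 12 called genes at least 1 other tested probe was not called, and 5 uncalled genes had a tested probe that was called.

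**Figure D5:**
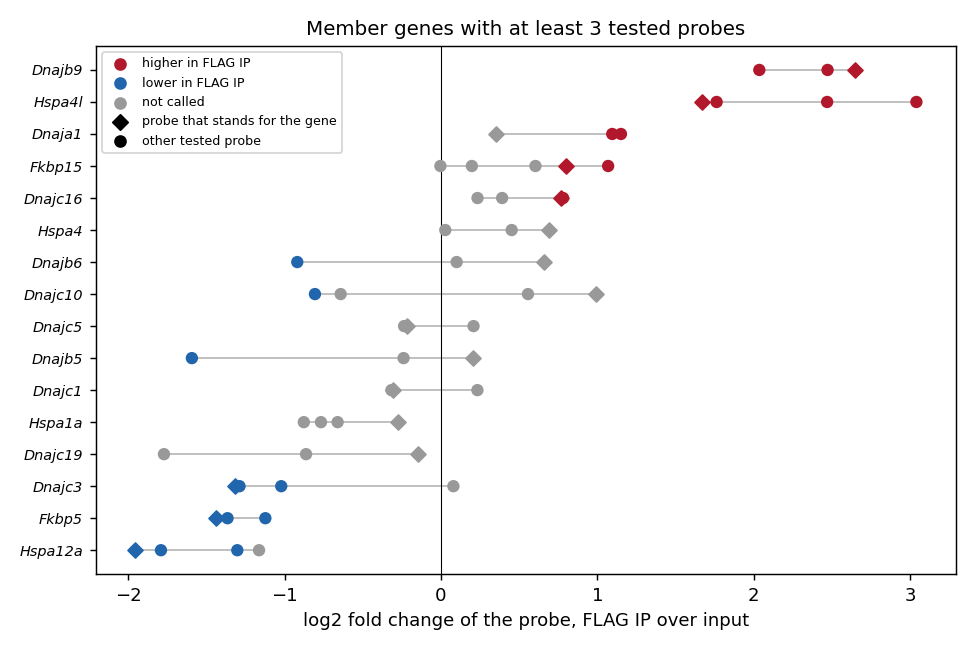
Log2 fold change of FLAG IP over input for each tested probe of the genes with at least 3 tested probes. The probes of Hspa4l and Dnajb9 all lie above 1, while those of Dnajc10 and Dnajb6 fall on both sides of 0.

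Genes outside the set that belong to the same pathways were taken from lists and tested in the same fit, with adjusted p from limma. The lists were chosen with earlier results of these data known, and most named genes are their extremes. An adjusted p here thus describes a gene and is no independent support. Beside the counts of these lists, 28.0% of all genes were called higher and 25.4% lower. In all 33 were called, against 10 and 11 with input array 1 or 2 left out. Among 22 co-chaperones of HSP70 and HSP90, 8 rose, 5 fell and the median was 0.06. Grpel2, a nucleotide exchange factor of mitochondrial HSP70, rose by 2.0 ± 0.21 (adjusted p = 0.00455), and Chordc1, an HSP90 co-chaperone, by 1.78 ± 0.22 (adjusted p = 0.00616). Cdc37l1, a relative of the kinase-targeting co-chaperone Cdc37, rose by 1.81 ± 0.33 (adjusted p = 0.0151), but stood at -0.25 with its probes averaged. Stub1, an E3 ligase that sends HSP70 clients for degradation, fell by 2.21 ± 0.18 (adjusted p = 0.00381), and Bag1, an HSP70 nucleotide exchange factor, fell by 1.99 ± 0.18 (adjusted p = 0.00401). Unc45a, a myosin chaperone, fell by 1.34 ± 0.36 (adjusted p = 0.0381).

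Prefoldin hands unfolded actin and tubulin to the CCT ring. Of 7 genes of prefoldin and Tcp1, 1 rose and 3 fell, with a median of -0.80, and 2 of the 7 entered through the input alone. Tcp1 stood at -0.80 and did not pass. Vbp1, a prefoldin subunit, rose by 1.11 ± 0.16 (adjusted p = 0.00851), while Pfdn5 fell by 2.64 ± 0.32 (adjusted p = 0.00595), Pfdn1 by 2.27 ± 0.40 (adjusted p = 0.0136) and Pfdn2 by 0.91 ± 0.17 (adjusted p = 0.0160). Among the heat shock factors and their regulators, 3 of 5 listed genes were tested, and Hsf2, which is expressed in germ cells, rose by 1.73 ± 0.19 (adjusted p = 0.00492). Hsf1 at 0.46 ± 0.37 and Hsbp1 at 0.57 ± 0.37 did not pass.

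Of 10 other folding factors of the endoplasmic reticulum, 0 rose by limma and 6 fell, with a median of -0.69. Serpinh1, the collagen chaperone HSP47, fell by 1.65 ± 0.17 (adjusted p = 0.00442), Sdf2l1 fell by 1.10 ± 0.22 (adjusted p = 0.0180) and Pdia3, a disulfide isomerase, by 0.92 ± 0.19 (adjusted p = 0.0198). Canx, the lectin calnexin, at 0.64 ± 0.31, Hyou1 at 0.31 ± 0.16 and Calr at -0.34 ± 0.20 did not pass. The cyclophilins turn the same bond as the FK506-binding proteins, and of 12 tested 1 rose and 8 fell, with a median of -1.09. Ppib, the cyclophilin of the endoplasmic reticulum, fell by 2.50 ± 0.30 (adjusted p = 0.00591), Ppia by 1.82 ± 0.16 (adjusted p = 0.00394) and Ppih, a spliceosome member, by 1.29 ± 0.19 (adjusted p = 0.00915), while Ppil4 rose by 1.77 ± 0.25 (adjusted p = 0.00795).

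RefSeq gives 9 more genes a name that the symbol rule would take in, which the array's own symbols do not. Of these, 8 were tested, with 2 called higher and 1 lower, where 28.0% and 25.4% of all genes were. Dnajc22 stood at 1.75 ± 0.32 and Dnajc27 at 1.36 ± 0.38, while Dnajc30, a mitochondrial protein, stood at -1.70 and Hspa13, an HSP70 of the endoplasmic reticulum, at 0.05.

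The lists of members by role divide the calls further, beside 28.0% of all genes called higher and 25.4% called lower. Of 12 listed genes known from testis or germ cells 9 were tested, with 3 called higher (Hspa4l, Hspa1l and Dnajc5g), 2 lower (Dnajb3 and Dnajb13) and a median of -0.16. Hspa1l, Dnajb13 and Hspb9 of this list passed the filter through the input alone. Of 11 listed heat-induced genes 10 were tested, with 2 called higher (Hsph1 and Dnajb1), 3 lower (Hspb1, Hspb8 and Fkbp4) and a median of -0.21. Hspb8 passed the filter through the input alone. Of 8 mitochondrial genes, Dnajc30 included, 1 was called higher (Dnajc11) and 2 lower (Dnajc15 and Dnajc30), with a median of 0.05.

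Markers of the cell types of the gonad differed between the groups, and the part of this in the values above was not tested. The germ cell markers were Nanos2, Ddx4, Dazl, Dppa3, Pou5f1, Mael, Tdrd1 and Dnd1. All 8 of 8 were measured, with 4 called higher and 1 lower. They summed to 159 and 180 in scaled signal on the FLAG IP arrays, against 87.4 and 92.7 on the input arrays. Nanos2 is also the product of the transgene, on a probe that does not separate the 2, so the count and sum are not independent of it. The Sertoli cell markers, 7 of 7 measured, had 1 called higher and 6 lower and summed to 16.4 and 17.7 in the FLAG IP, against 119 and 102 in the input. The Leydig cell markers, 5 of 5 measured, had 5 called lower and summed to 20.01 and 19.3 in the FLAG IP, against 139 and 126 in the input. The mesenchyme markers, 5 of 5 measured, had 5 called lower and summed to 33.3 and 24.5 in the FLAG IP, against 188 and 180 in the input. Summed germ cell signal, Nanos2 included, was thus higher and summed Leydig, Sertoli and mesenchyme signal lower in the FLAG IP. The endothelial markers, 4 of 4 measured, had 2 called lower and summed to 2.29 and 1.4 in the FLAG IP, against 3.99 and 3.35 in the input. The macrophage markers, 3 of 4 measured, had 3 called lower and summed to 0.624 and 0.709 in the FLAG IP, against 3.99 and 3.88 in the input. The erythroid markers, 3 of 4 measured, had 3 called lower and summed to 14.97 and 12.4 in the FLAG IP, against 159 and 149 in the input. All germ cell, Leydig and mesenchyme markers were above background on all 4 arrays. Through the input alone, where they had to be bright, entered 1 Sertoli, 1 endothelial, 2 macrophage and 2 erythroid markers. No count over the macrophage or erythroid markers is therefore read. Of all genes, 28.0% were called higher and 25.4% lower.

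The authors' deposited table gives a ratio of FLAG IP to input for the same probes. It reads 0.116 for Fkbp7, 0.178 for Fkbp2, 0.187 for Fkbp10 and 0.154 for Hspb1 in the authors' deposited table, and 0.494 for Cct7. Hspa8 has 0.839, Hsph1 3.48 and Dnajc6 7.77 there.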

How the data were processed

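FLAG IP and input RNA (0.2 µg per array) of embryonic day 14.5 male gonads were hybridised to 2 one-colour Agilent arrays per group and, per the submitters' processing notes, scanned values came from Agilent Feature Extraction 9.5. Per the file headers, the deposited intensity of a spot is its processed signal after background subtraction. The authors' deposited table gives a FLAG IP over input ratio per probe, a raw intensity that equals the mean of the 2 arrays, and the p-value of a t-test, not used since its comparison is unstated.

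The values analysed here are log2 of the deposited processed signal minus the 75th percentile over 43379 non-control spots. Spots with outlier marks (90 and 104 in the FLAG IP, 61 and 52 in the input) were dropped, and spots of a probe averaged. A probe entered where both arrays of 1 group or more marked it well above background, and the brightest probe stood for a gene. Names came from RefSeq (GRCm38.p6) for 31004 probes by gene ID, 309 by an older symbol and 155 by symbol; 1108 kept the file's name and 8598 had none. For all 163 member probes the gene ID matched, and 3 symbols were updated. limma 3.58.1 in R 4.3.3 (lmFit and eBayes, no block, 2 residual and 2.08 prior degrees of freedom) compared the groups, two-sided, with Benjamini-Hochberg adjustment over 15266 genes at 0.05. The steps were tested on simulated data.

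The members, lists and the rule for named genes were chosen with earlier results of these data known. By that rule every member may be named, per-array values go to the Cct genes, to genes of the member lists and to the extremes of each family, and outside the set up to 3 highest and 3 lowest genes of each list are named; further members are given by fold change or range. Alternatives were normexp (offset 50) on the median signal and median background, in place of the planned mean signal, quantile and median scaling, no scaling, other filters and probe rules, eBayes settings, replicate and slide blocks, and each array left out. The number of per-sample columns left unused was 0. Only 2 pairs share a replicate number, and their deviations correlated at r = 0.05, so the main fit has no block.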

Additional observations from a re-analysis of the deposited data

How the results depend on the processing

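Beside 15 higher and 26 lower calls among the 81 genes, 33 calls among the pathway genes outside the set and 10 lower calls among the Fkbp genes, normexp correction gave 2, 12, 12 and 6, with a median of -0.79 relative to all genes against -0.30. Quantile normalization gave a median of 0.0016. Without scaling limma called 0, 0, 0 and 0, and over all genes 0 were higher and 4047 lower at an unadjusted p under 0.05. Without the filter on dim probes 8 were higher and 17 lower, and testing each probe singly gave 23 and 42, with 16 Fkbp probes lower. With slide as a block, which here equals leaving out input array 1, the counts were 4, 12, 10 and 6. With 1 array left out they ranged from 4 to 26, from 12 to 41, from 10 to 48 and from 6 to 13, with the lone array assumed to vary like the other group. The same replicate numbers used as a replicate block gave 11 higher and 22 lower members (4130 and 3875 of all genes); the numbers do not pair the arrays. Of the 41 called members, 14 kept their call under normexp and 35 under quantile normalization. Most lost it with either input array left out. With a FLAG IP array left out, the residual spread came from the 2 input arrays alone. Their median SD over the set was 0.05, against 0.27 in the FLAG IP. Calls kept in that setting therefore say nothing of the spread between the FLAG IP arrays. Under normexp, signs relative to all genes turned for Dnajb13 (1.04), Hspb7 (0.31), Dnajc8 (-0.045), Hspbap1 (-0.19), Ptges3 (-0.18) and Bag5 (-0.34). Those of Dnajc8 and Hspbap1 rest on the shift of all genes taken off, given below. Signs also turned under quantile normalization for Hsp90ab1 (0.42) and Hsp90b1 (0.0070) and with probes averaged for Cdc37l1 (-0.25). Without FLAG IP array 1 the sign turned for Pfdn4 (0.89, against -1.75 without FLAG IP array 2). The cause was not tested. Scaling by the median, normexp and no scaling moved the median of all genes by -0.13, 0.31 and -2.49, which was taken off single values and medians. FLAG IP array 1 was the dimmest, with 42.7% of spots well above background, which limits the dim genes most.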
